A study of Mus musculus with 2 samples.

Results

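The complement genes of the temporomandibular joint (TMJ) stroma were followed through a pair of single-cell RNA-Seq libraries of mouse TMJs. The 8 genes were C3, C4b, C2, Cfb, Cfd, Serping1, C3ar1 and C5ar1, taken by symbol from the 32285 genes listed in the files, and each symbol belonged to 1 gene ID. The PBS library came from wild-type C57BL/6 mice whose TMJs received PBS, and the CFA library came from wild-type C57BL/6 mice whose TMJs received complete Freund's adjuvant, an oil emulsion with killed mycobacteria that provokes a lasting joint inflammation. The labels gave an age of 8 to 10 weeks, and the methods described bilateral injection into the joint of 10 µL, either PBS or CFA at 5 mg/mL, in female mice at 8 weeks of age, with collection 3 weeks later. Whole joints, from condyle and disc to the attached bone, ligament and muscle, went into a common digest, and CD45+ cells were depleted with magnetic beads, so the number of leukocytes captured did not give their number in the joint. Each condition had 1 library, so no difference between PBS and CFA had a replicate check, no test was possible, and the intervals below cover counting error only.

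Complement is a cascade of secreted proteins that marks surfaces and calls in leukocytes. The classical pathway starts with C1, whose proteases cleave C4 and C2 to form a C3 convertase. The alternative pathway makes its convertase from C3b and factor B (Cfb), which is cleaved by factor D (Cfd, adipsin). Serping1 encodes C1 inhibitor, which blocks the C1 proteases. C3ar1 and C5ar1 encode the receptors for the anaphylatoxins C3a and C5a. The liver is the main source of the plasma proteins, and fibroblasts and macrophages are known local sources.

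Barcodes with at least 500 genes, at most 10% mitochondrial UMIs and at most 1% hemoglobin UMIs were kept, which left 2667 cells and 27201994 UMIs in the PBS library and 4014 cells and 44432717 UMIs in the CFA library. The hemoglobin limit removed 3178 PBS barcodes and 339 CFA barcodes. The median cell held 7022 UMIs under PBS and 6510 under CFA, and 2 barcode sequences were shared by the kept cells of both libraries. Cells were clustered with the complement genes left out, and clusters were named from marker genes, each name meaning "like" that cell type. Fibroblast-like cells numbered 495 under PBS and 366 under CFA, and each of their 3 clusters carried 5 to 7 of the 7 fibroblast markers. Levels are given as counts per 1000000 UMIs of the class (CPM) with exact Poisson 95% intervals, and ratios are CFA over PBS with exact conditional binomial 95% intervals. A ratio was made only in classes with at least 50 cells in each library and for genes with at least 20 UMIs over both libraries, and was called past 2-fold from its value alone. Of the 13211 genes compared in fibroblast-like cells, 8.26% were past 2-fold higher and 5.6% past 2-fold lower in the CFA library.

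C3, C4b, C2 and Cfb lie on mouse chromosome 17. In GRCm38, C3 spans 57203970 to 57228136, C4b spans 34728380 to 34743882, Cfb spans 34856374 to 34862518 and C2 spans 34862604 to 34898265, each on the minus strand. Cfb begins 86 bases after C2 ends on the same strand. Cfd lies on chromosome 10 from 79890853 to 79892655 on the plus strand, and Serping1 on chromosome 2 from 84765387 to 84775444 on the minus strand. C3ar1 lies on chromosome 6 from 122847138 to 122856161 and C5ar1 on chromosome 7 from 16246743 to 16259540, both on the minus strand. C4b has a near-identical neighbor, C4a, at 34809092 to 34823464 on chromosome 17, so the division of counts between them is uncertain. Fibroblast-like cells held 1 UMI of C4a under PBS and 0 under CFA.

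The promoter of C3 is shown because C3 had the most UMIs of the members in the CFA library and differed by several fold between the libraries. RefSeq promoter sequences of build GRCm38.p6 were at hand for 4 of the 8 members, C3, Cfd, C3ar1 and C5ar1. The 250 bases before the C3 start (chr17:57228137-57228386, minus strand, 5′ to 3′) are given with matches to the motif TTNNGNAA, a loose form of the C/EBP site, in capitals.
C3: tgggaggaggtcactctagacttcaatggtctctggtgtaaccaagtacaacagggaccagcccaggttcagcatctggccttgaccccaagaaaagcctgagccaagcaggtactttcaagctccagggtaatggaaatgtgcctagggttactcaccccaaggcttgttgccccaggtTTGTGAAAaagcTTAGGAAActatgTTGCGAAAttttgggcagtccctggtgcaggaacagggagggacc
The 3 matches begin 70, 58 and 45 bases before the start. The search covered both strands, and 36.8% of 32851 promoter windows of this length held at least 1 match and 2.61% at least 3. No match to TTCNNNGAA (the GAS motif, in 7.02% of windows), GAAANNGAA (a core of the ISRE motif, in 7.13%) or the NF-kappaB consensus (in 7.25%) was found in the C3 window. A match describes these letters and shows no binding.

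C3, the component on which both pathways converge, was 7.25 times as high in CFA as in PBS fibroblast-like cells. Its level was 298 CPM in the PBS library (284 to 313) and 2164 CPM in the CFA library (2125 to 2203), with a ratio interval of 6.89 to 7.64. A C3 UMI was present in 34.9% of the 495 PBS cells (30.7 to 39.3, exact binomial) and in 77.0% of the 366 CFA cells (72.4 to 81.3). After each cell was thinned to 1000 UMIs the shares were 16.7% of 491 cells and 56.0% of 357 cells. The median fibroblast-like cell held no C3 UMI in the PBS library and 1104 CPM in the CFA library. Cells with at least 10 C3 UMIs made up 12.5% of PBS cells and 55.2% of CFA cells. The 50 PBS cells with the most C3 UMIs held 67.9% of them and the corresponding 37 CFA cells held 46.2%, and no cell held more than 3.26%. B cell-like cells, which should not make C3 mRNA, had 1.93 CPM in the PBS and 21.4 CPM in the CFA library, with a C3 UMI in 0.962% of 208 cells and 6.04% of 149 cells at median depths of 3706.5 and 4036 UMIs per cell. The depth of the fibroblast-like cells was higher, with medians of 11174 and 12856.5 UMIs.

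C4b, which encodes complement C4, was 69.9 CPM in PBS fibroblast-like cells (63.1 to 77.2) and 457 CPM in CFA fibroblast-like cells (439 to 475). The ratio was 6.54 (5.87 to 7.29). The share of cells with a C4b UMI was 19.2% under PBS and 63.7% under CFA, and 5.50% and 29.1% after thinning. B cell-like cells held 1 C4b UMI under PBS and 0 under CFA.

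C2, which encodes the serine protease that completes the classical C3 convertase, was 17.5 CPM (14.2 to 21.3) in the PBS library and 85.6 CPM (78.1 to 93.7) in the CFA library. The ratio was 4.90 (3.93 to 6.16), and a UMI was seen in 11.9% and 39.9% of cells. In B cell-like cells C2 had 4 UMIs under PBS and 0 under CFA. The few perineurial-like cells, the sheath cells of nerves, had a higher C2 level than fibroblast-like cells under PBS, with 262 CPM (162 to 401) from 21 UMIs in 9 of 13 cells. Under CFA they had 148 CPM (54.2 to 322) from 6 UMIs in 5 of 8 cells, an interval that overlapped that of fibroblast-like cells.

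Cfb, which encodes the protease of the alternative convertase, was 39.4 CPM (34.4 to 45.03) in PBS and 340 CPM (325 to 356) in CFA fibroblast-like cells. The ratio of 8.62 (7.49 to 9.96) had an interval that lay above those of C4b, C2 and Serping1 and overlapped that of C3. A Cfb UMI was seen in 16.0% of cells under PBS and 58.5% under CFA, or 3.26% and 19.9% after thinning. B cell-like cells held 0 Cfb UMIs in the PBS library and 26.4 CPM (16.3 to 40.4) in the CFA library.

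Serping1 was the member with the highest level in PBS fibroblast-like cells and its ratio stood at the 2-fold line. It was 1394 CPM (1364 to 1426) in the PBS and 2802 CPM (2758 to 2847) in the CFA library, a ratio of 2.01 (1.96 to 2.07). A UMI was already present in 87.9% of PBS cells and was present in 95.4% of CFA cells. The direction held in each of the 14 alternative analyses, 3 of them chosen after seeing the data, while the ratio reached 2 in 4 of them. B cell-like cells had 36.7 CPM in the PBS and 5.03 CPM in the CFA library.

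Cfd gave no fibroblast-wide signal. Fibroblast-like cells held 0 Cfd UMIs in the PBS library, which allows up to 0.540 CPM, and 61 UMIs in the CFA library, or 11.04 CPM. These 61 UMIs lay in 3 of 366 cells, and 1 cell held 47 of them, so the ratio of at least 20.4 against a floor of 3 counts describes a few cells. In the CFA library 599 of 602 Cfd UMIs lay in 5 cells, each of which also held UMIs of Adipoq, the adiponectin gene of adipocytes. Of the 5 cells, 2 were fibroblast-like and 3 belonged to an unnamed cluster led by Car1, Car2 and Slc25a21. In the PBS library 16 of 22 Cfd UMIs lay in 1 cell of that cluster, which held 54 Adipoq UMIs. The 5 adipocyte markers summed to 1.08 CPM in PBS and 59.4 CPM in CFA fibroblast-like cells, with Cidec and Lep at 0 in both libraries.

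The receptors were at or near the background in fibroblast-like cells. C3ar1 had 0 UMIs in the PBS and 12 UMIs in the CFA library (2.17 CPM), against 3.77 CPM in CFA B cell-like cells. C5ar1 had 2 UMIs in the PBS and 25 UMIs in the CFA library (4.53 CPM), against 2.51 CPM in CFA B cell-like cells. A single cell held 10 of the 25 C5ar1 UMIs, and the ratio of 12.6 (3.13 to 109) rests on these counts. Over the 14 alternatives it ranged from 2.75, without the cells of highest doublet score, to 30.3, as a mean over cells.

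Of the 7 members compared in fibroblast-like cells, 7 were past 2-fold higher, against the 8.26% of all genes given above, and their median log2 ratio was 2.86 beside 0.01 over all compared genes. Cfd and C5ar1 were among the 7 on the few cells described, and Serping1 at the line, which leaves C3, C4b, C2 and Cfb as the members far past it. Cfd, with 0 PBS UMIs, and C5ar1, with 2, met the minimum of 20 UMIs only through the CFA library, so they could only be called higher. The members were also chosen with earlier results of these data known, so these counts describe them and are no independent support. Leukocyte RNA differed between the libraries in these cells. The 8 macrophage markers summed to 9.55 CPM in PBS and 25.9 CPM in CFA fibroblast-like cells, with Cd163 at 0 in both, and the 10 neutrophil markers to 504 CPM and 159 CPM. Of the neutrophil marker UMIs 3 cells held 84.5% under PBS and 14.0% under CFA, and the median cell had the opposite order, at 66.8 and 130 CPM. With the B cell-like level of each library subtracted, the ratios were 7.22 for C3, 6.63 for C4b, 6.29 for C2, 7.95 for Cfb and 2.06 for Serping1.

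**Figure D1:**
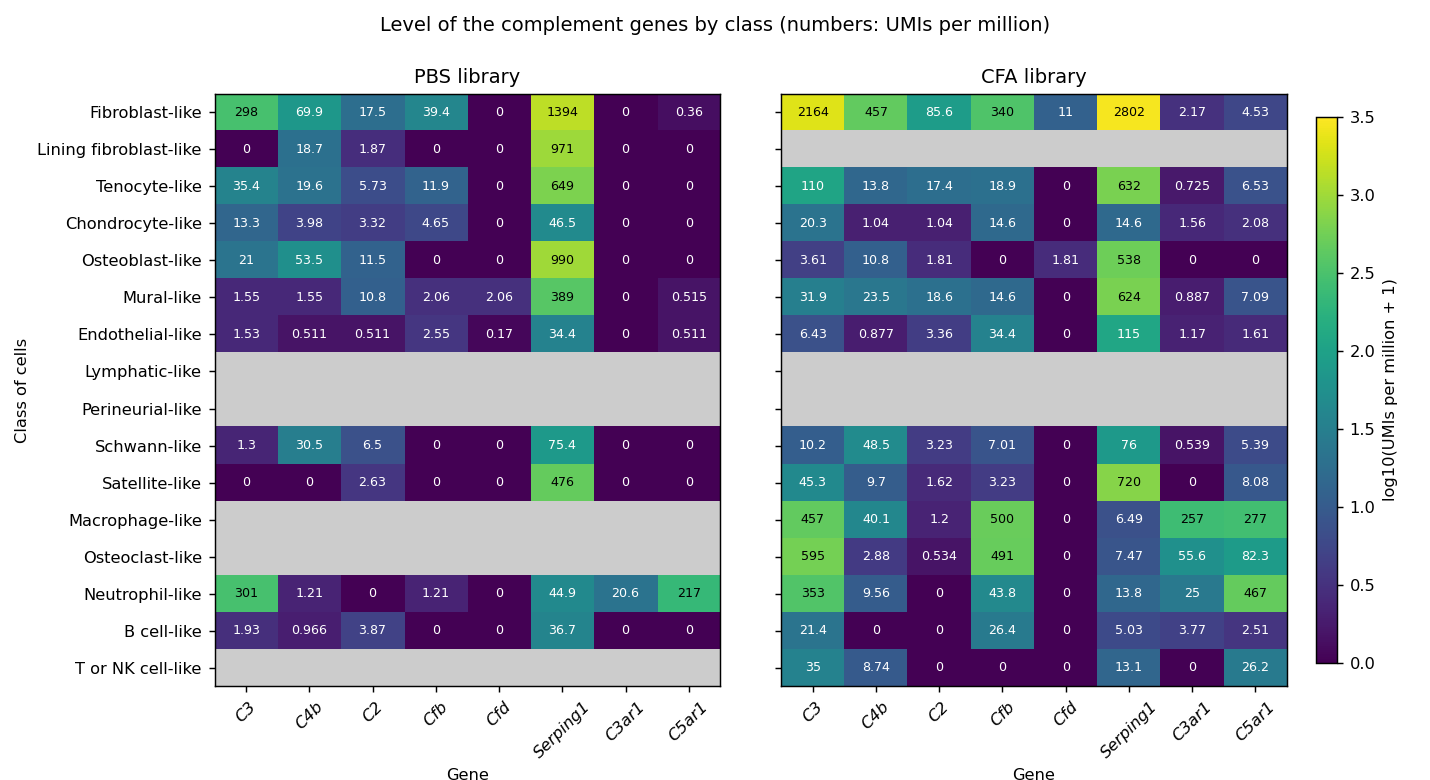
Level of the 8 genes (columns) in each named class of cells (rows) in the PBS library (left) and the CFA library (right), as CPM; color is log10(CPM + 1), and gray marks classes with fewer than 20 cells in that library. Among classes of at least 20 cells, C3, C4b and C2 were highest in fibroblast-like cells of the CFA library. In that library Cfb was higher in macrophage-like (500 CPM) and osteoclast-like cells (491 CPM) than in fibroblast-like cells (340 CPM). C3ar1 and C5ar1 lay mainly in the myeloid rows.

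Within fibroblast-like and lining cells, the subclusters shared the direction for C3 and Cfb but not the size. Pi16-marked adventitial cells (128 PBS and 130 CFA cells) had the highest PBS level of C3 at 578 CPM and reached 3106 CPM in the CFA library, a ratio of 5.37 (5.02 to 5.74). Sublining cells (163 and 95 cells) went from 244 to 2840 CPM, a ratio of 11.6 (10.5 to 12.9), so their CFA level came close to that of the adventitial cells from a lower PBS level. Their name pools a cluster of 149 and 88 cells and a cluster of 14 and 7 cells, and Col15a1, Smoc2 and Penk passed the marker rule in both. Thy1, by which the authors name sublining fibroblasts, passed in neither. A subcluster led by the matrix genes Comp and Fmod and the tendon transcription factor gene Scx (125 and 56 cells) went from 131 to 362 CPM, a ratio of 2.77 (2.32 to 3.30). A subcluster led by Cadm1, Unc5c and Fry with a low median of 3945 UMIs per cell (78 and 53 cells) went from 65.9 to 555 CPM, a ratio of 8.43 (5.76 to 12.7). The intervals of the sublining and the Comp-led ratios did not overlap each other or that of the adventitial cells, but they leave out the spread between cells. In Comp-led cells the 213 PBS UMIs of C3 lay in 16 of 125 cells. The shares with a C3 UMI after thinning were 2.40% and 21.4% in Comp-led cells. They were 36.7% and 80.8% in adventitial cells and 16.0% and 52.2% in sublining cells, so the order of the subclusters depended on the measure.

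C4b had a ratio of 9.002 (7.24 to 11.3) in sublining cells and 5.61 (4.81 to 6.57) in adventitial cells, and 1.65 (1.18 to 2.34) in the Cadm1-led cells, where it stood at 123 CPM in the PBS library. C2 was highest in sublining cells in the PBS library at 40.3 CPM, against 9.35 CPM in adventitial cells, and the CFA levels were 127 and 78.0 CPM. The ratio of C2 was 3.16 (2.34 to 4.30) in sublining and 8.35 (5.004 to 14.9) in adventitial cells, the reverse of the order for C3. Cfb had ratios of 8.48 (6.86 to 10.6) in adventitial, 5.73 (4.63 to 7.14) in sublining and 8.75 (4.03 to 21.7) in Comp-led cells. Serping1 had a ratio of 2.003 (1.92 to 2.09) in adventitial cells, 1.76 (1.66 to 1.85) in sublining cells and 1.28 (1.19 to 1.37) in Comp-led cells, and 3.88 (2.86 to 5.34) in the Cadm1-led cells, whose PBS level was 116 CPM.

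Lining cells, marked by Prg4 (lubricin), numbered 31 under PBS and 6 under CFA. C3 and Cfb had 0 UMIs in the PBS lining cells, which allows up to 5.40 CPM each. The 6 CFA lining cells held 43 UMIs of C3 (318 CPM, 230 to 428) and 28 UMIs of Cfb (207 CPM, 138 to 299), from 3 and 4 cells. A subcluster led by the collagenase gene Mmp13 and the chemokine gene Cxcl5 held 0 PBS and 32 CFA cells and had 1563 CPM of C3, 459 CPM of C4b, 149 CPM of C2 and 441 CPM of Cfb. When the 4 subclusters with at least 50 cells in both libraries were given equal weight, the CFA to PBS ratios were 6.73 for C3, 4.58 for C4b, 4.30 for C2, 7.03 for Cfb and 1.78 for Serping1.

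**Figure D2:**
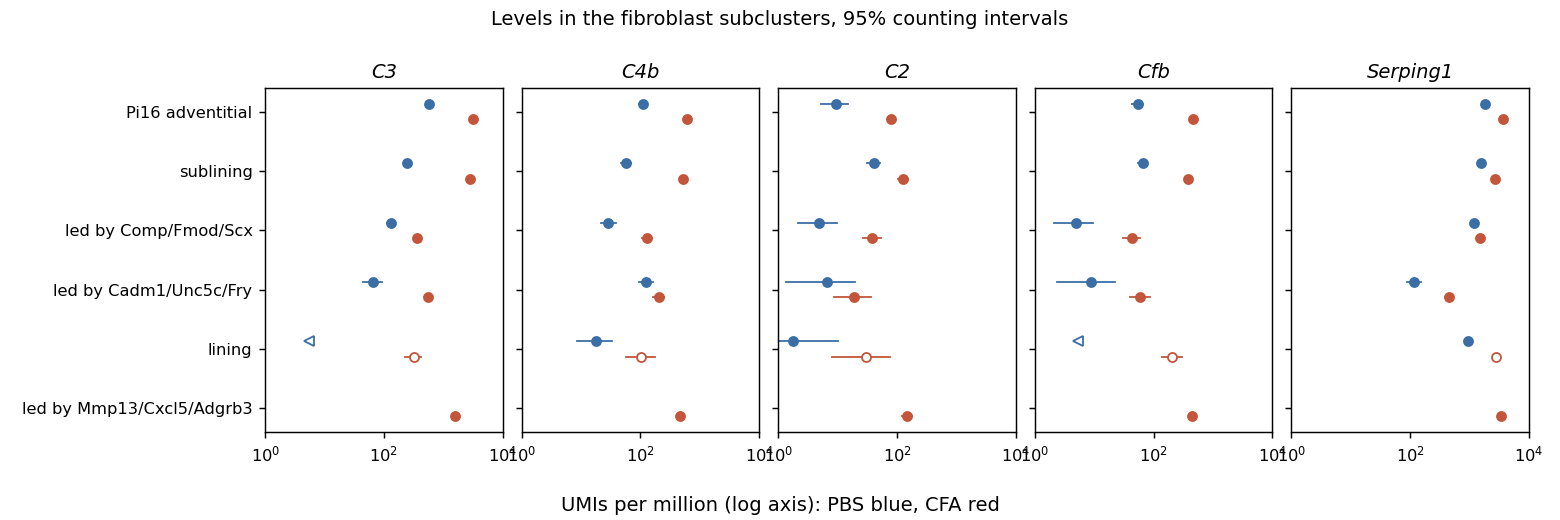
CPM (log axis) of 5 genes in the 6 fibroblast subclusters, PBS in blue and CFA in red, with exact Poisson 95% intervals; open circles mark subclusters with fewer than 20 cells in that library, and open triangles the limit that 0 UMIs allow. The CFA points lie above the PBS points in each subcluster with both, and among the 4 subclusters that held 50 or more cells of each library the distance is widest for C3 in sublining cells (11.6-fold) and narrowest for Serping1 in Comp-led cells (1.28-fold).

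The share of cells with a C4b or Cfb UMI was higher among fibroblast-like cells with a C3 UMI than among those without. Among CFA fibroblast-like cells thinned to 1000 UMIs, 42% of the 200 cells with a C3 UMI had a C4b UMI (35.1 to 49.2) against 12.7% of the 157 cells without (7.96 to 19.0). Cfb was seen in 30.0% (23.7 to 36.9) and 7.01% (3.55 to 12.2). In the PBS library the shares for C4b were 15.9% of 82 and 3.42% of 409 cells, and for Cfb 9.76% and 1.96%. Serping1, which most cells carried, was seen in 88.5% and 62.4% of CFA cells and in 70.7% and 56.7% of PBS cells.

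Outside the fibroblasts, the stromal classes differed in which members they carried. Tenocyte-like cells (156 PBS and 110 CFA cells) had 35.4 CPM of C3 in the PBS and 110 CPM in the CFA library, a ratio of 3.12 (2.35 to 4.17), and 1.81 without the 3 cells of each library with the most C3 UMIs. C2 had a ratio of 3.04 (1.46 to 6.66). C4b was 19.6 and 13.8 CPM (ratio 0.703, 0.386 to 1.24) and Serping1 was 649 and 632 CPM (0.974, 0.894 to 1.06). Cfb was 11.9 and 18.9 CPM (1.58, 0.876 to 2.85), and its CFA level was no higher than the 26.4 CPM of B cell-like cells. The 10 neutrophil markers summed to 78.9 CPM in PBS and 4358 CPM in CFA tenocyte-like cells, and 3 cells held 95.2% of the latter. Of 5 members compared, 2 were past 2-fold higher and 0 lower, where 4.08% of 10585 genes were higher and 5.62% lower.

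Mural-like cells, the pericytes and smooth muscle of vessels (178 and 221 cells), had 389 CPM of Serping1 in the PBS and 624 CPM in the CFA library, a ratio of 1.60 (1.47 to 1.75). C3 went from 3 to 72 UMIs (31.9 CPM in the CFA library), C4b from 3 to 53 UMIs (23.5 CPM) and Cfb from 4 to 33 UMIs (14.6 CPM), with ratios of 20.6 (6.79 to 102), 15.2 (4.93 to 76.0) and 7.10 (2.52 to 27.6). Over the alternatives these ratios spanned 6.42 to 21.2, 6.43 to 40.5 and 5.57 to 24.4. The CFA levels of C3 and Cfb in B cell-like cells were 21.4 and 26.4 CPM, so the mural levels of these genes were near the background, whereas that of C4b, at 0 UMIs in CFA B cell-like cells, was above it. C2 was 10.8 and 18.6 CPM (ratio 1.72, 0.996 to 3.06). Neutrophil markers summed to 2430 CPM in the CFA mural-like cells, of which 3 cells held 91.2%. Of 5 members compared, 3 were higher and 0 lower, where 3.79% of 11092 genes were higher and 4.85% lower.

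Endothelial-like cells (756 and 1045 cells) had 34.4 CPM of Serping1 in the PBS and 115 CPM in the CFA library, a ratio of 3.35 (2.87 to 3.93). This ratio was past 2-fold in 11 of 12 alternatives and 1.29 when cells were classed singly. The PBS level of Serping1 was no higher than the 36.7 CPM of PBS B cell-like cells, so no ratio with that level subtracted could be made. The CFA level was above the 5.03 CPM of CFA B cell-like cells. Cfb was 2.55 and 34.4 CPM, a ratio of 13.5 (7.99 to 24.4), and 3.12 with the B cell-like level subtracted. C3 at 1.53 and 6.43 CPM and C2 at 0.511 and 3.36 CPM were low, and the CFA level of C3 was below that of B cell-like cells. Of 4 members compared, 4 were higher, where 5.04% of 12665 genes were higher and 6.12% lower. The 10 neutrophil markers summed to 130 and 307 CPM in these cells, with 67.4 and 315 CPM in the median cell, and the 7 fibroblast markers to 394 and 127 CPM. The part of this RNA in the ratios was not tested. The levels of Cfb and Serping1 differed between the endothelial subclusters. Venular-like cells, marked by Selp and Plvap (123 and 191 cells), had 7.21 CPM of Cfb in the PBS and 63.9 CPM in the CFA library, a ratio of 8.86 (4.95 to 17.5), and 107 and 240 CPM of Serping1, a ratio of 2.23 (1.89 to 2.65). Arterial-like cells (129 and 163 cells) had 2 and 36 UMIs of Cfb. Its CFA level there was 32.2 CPM (22.5 to 44.5), an interval that held the 26.4 CPM of CFA B cell-like cells. Serping1 was 10.5 and 100.1 CPM in arterial-like cells, a ratio of 9.52 (5.12 to 19.6). Their PBS level of Serping1 was also below that of PBS B cell-like cells. In capillary-like cells no member reached 20 UMIs over both libraries. The same held in the unnamed subclusters led by Hdac9 (240 and 354 cells) and by Gm12002 (89 and 130 cells).

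Chondrocyte-like cells (59 and 88 cells) had 46.5 CPM of Serping1 in the PBS and 14.6 CPM in the CFA library, a ratio of 0.313 (0.195 to 0.492). B cell-like cells had 36.7 and 5.03 CPM, and with that level subtracted the ratio was 0.977. It was 0.881 without the 3 highest cells of each library, and past 2-fold in 8 of 12 alternatives. Cfb had 7 and 28 UMIs, a ratio of 3.13 (1.34 to 8.50), which turned to 0.783 without the 3 highest cells. C3 was 13.3 and 20.3 CPM (1.53, 0.869 to 2.76). The CFA levels of Cfb, at 14.6 CPM, and C3 were no higher than those of B cell-like cells, at 26.4 and 21.4 CPM. Of 3 members compared, 1 was higher and 1 lower, where 6.2% of 9874 genes were higher and 6.49% lower. Osteoblast-like cells, with 35 and 28 cells too few for a ratio, had 990 and 538 CPM of Serping1 and 53.5 and 10.8 CPM of C4b.

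Schwann-like cells, the glia of nerves (308 and 376 cells), had the highest C4b level of the compared stromal classes outside the fibroblasts in both libraries, at 30.5 and 48.5 CPM (ratio 1.59, 1.10 to 2.31). The PBS interval overlapped that of tenocyte-like cells at 19.6 CPM, and osteoblast-like cells, not compared, were at 53.5 CPM under PBS. In Schwann-like cells Serping1 was 75.4 and 76.0 CPM (1.008, 0.783 to 1.30). C3 had 2 and 19 UMIs there (7.88, 1.90 to 69.8), with a CFA level of 10.2 CPM below that of B cell-like cells. Of 3 members compared, 1 was higher and 0 lower, where 8.34% of 10815 genes were higher and 3.01% lower. Satellite-like cells, the muscle stem cells (56 and 88 cells), had 476 and 720 CPM of Serping1 (1.51, 1.27 to 1.81) and 0 and 28 UMIs of C3, at least 5.74-fold higher against a floor of 3 counts and 1.41 without the 3 highest cells. Of 2 members compared, 1 was higher, where 8.49% of 6397 genes were higher and 6.86% lower.

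**Figure D3:**
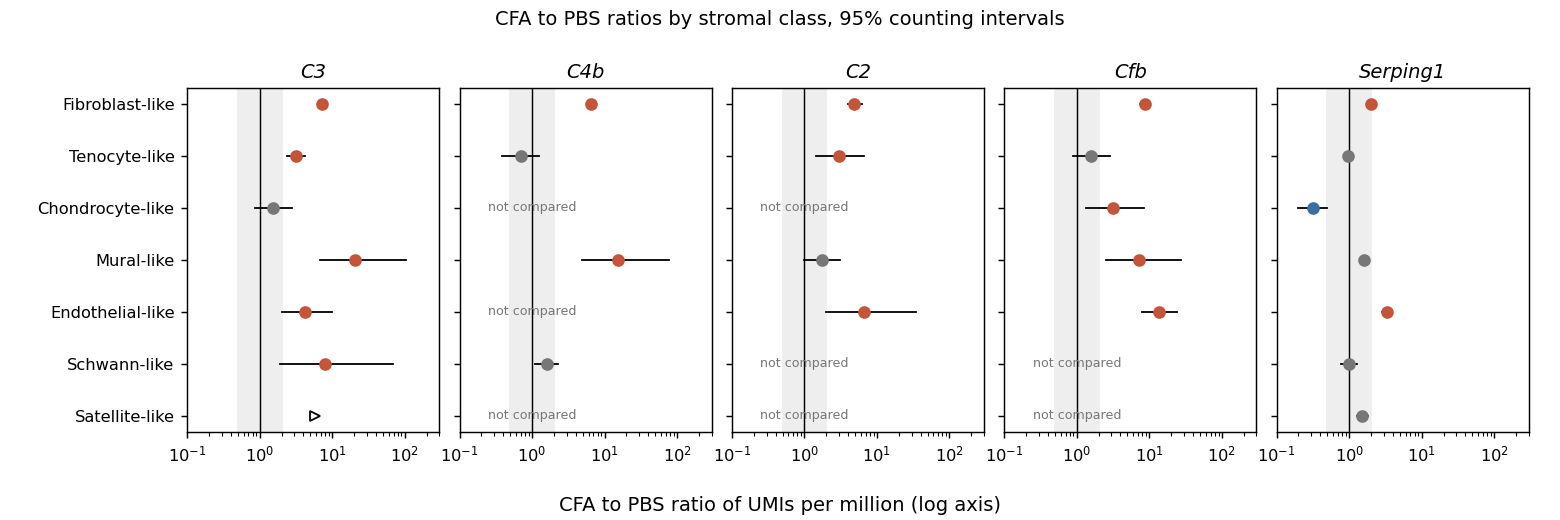
CFA to PBS ratio of CPM (log axis) of 5 genes in 7 stromal classes, with exact conditional binomial 95% intervals; red points are past 2-fold higher, blue past 2-fold lower and gray within 2-fold, the shaded band spans 0.5 to 2, and the open triangle is a lower bound. Fibroblast-like cells lie at 7.25 for C3 and 2.01 for Serping1, and chondrocyte-like cells at 0.313 for Serping1.

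The myeloid classes carried both receptors and, in the CFA library, much of C3 and Cfb. Macrophage-like cells (19 PBS and 301 CFA cells) had 457 CPM of C3 (437 to 478), 500.3 CPM of Cfb (479 to 522), 257 CPM of C3ar1 (242 to 273) and 277 CPM of C5ar1 (261 to 293) in the CFA library. Osteoclast-like cells (1 and 280 cells) had 595 CPM of C3 (579 to 610), 491 CPM of Cfb (477 to 505), 55.6 CPM of C3ar1 and 82.3 CPM of C5ar1. The intervals of Cfb in these classes overlapped each other and lay above that of fibroblast-like cells. Neither class had enough PBS cells for a ratio. Neutrophil-like cells (72 and 351 cells) had 301 and 353 CPM of C3 (ratio 1.17, 1.02 to 1.35) and 217 and 467 CPM of C5ar1 (2.15, 1.84 to 2.52), where 7.91% of 9365 genes were past 2-fold higher and 15.1% past 2-fold lower in that class. C3ar1 was 20.6 and 25.04 CPM there (1.21, 0.710 to 2.19). Cfb had 1 and 133 UMIs (43.8 CPM under CFA, ratio 36.1, 6.37 to 1436), beside 26.4 CPM in CFA B cell-like cells. C4b had 1 and 29 UMIs (7.87, 1.31 to 321). Over 12 alternatives these ratios spanned 1.43 to 37.8 and 1.18 to 8.25, past 2-fold in 11 and 10. Serping1 was lower, at 44.9 and 13.8 CPM (0.308, 0.193 to 0.493), beside 36.7 and 5.03 CPM in B cell-like cells. The part of that background in the Serping1 ratio was not tested. Of 6 members compared in this class, 3 were past 2-fold higher and 1 lower. The clusters that made up the class differed between the libraries. A cluster led by Stfa2l1 and Cstdc4, with Cxcr2 and Retnlg among its top 10 genes, held 18 of the 72 PBS cells and 185 of the 351 CFA cells, and a cluster led by the granule genes Camp and Ngp held 45 and 145. The part of this make-up in the ratios was not tested. C5ar1 was past 2-fold in 8 of 12 alternatives there, with ratios of 1.28 to 3.94.

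The cells that held the mRNA therefore differed between the members. Fibroblast-like cells held 74.5% of C3 UMIs under PBS and 55.1% under CFA, where osteoclast-like cells held 25.7% and macrophage-like cells 8.78%. For Cfb the fibroblast-like share was 72.0% of 304 UMIs in the PBS library and 20.2% of 9294 UMIs in the CFA library, where osteoclast-like cells held 49.5% and macrophage-like cells 22.4%. C4b, C2 and Serping1 lay mainly in the stroma, with fibroblast-like shares of 71.7%, 46.4% and 64.6% in the PBS and 82.9%, 75.9% and 75.6% in the CFA library. C4b was also found in CFA macrophage-like cells, at 40.1 CPM from 167 UMIs, or 5.48% of its CFA UMIs. The unnamed cluster led by Car1 held 2.40% of them. Macrophage-like cells held 61.4% of 57 C3ar1 UMIs in the PBS and 60.8% of 1763 in the CFA library. These shares follow the cells captured after CD45 depletion, and fibroblast-like cells made up 18.6% of kept PBS and 9.12% of kept CFA cells. They also follow the hemoglobin limit, which removed 3178 PBS and 339 CFA barcodes. Without that limit neutrophil-like cells numbered 357 under PBS and 360 under CFA, against 72 and 351 with it.

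**Figure D4:**
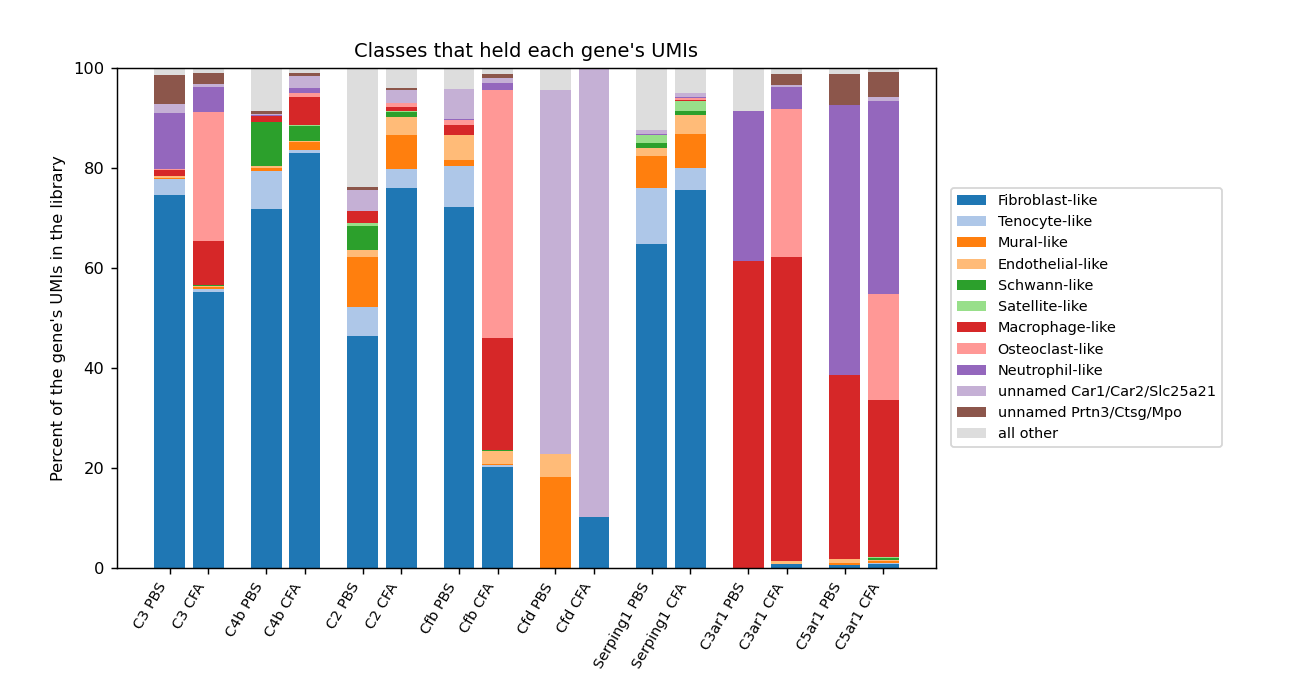
Percent of each gene's UMIs held by each class, in the PBS library and the CFA library side by side; bars add to 100%. The fibroblast-like part of Cfb is 72.0% in PBS and 20.2% in CFA, and Cfd lies mostly in the unnamed cluster led by Car1 in both libraries.

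The wider complement list held 54 genes with the members. In fibroblast-like cells 28 were compared, 18 were past 2-fold higher and 2 lower, where 8.26% of all compared genes were higher and 5.6% lower. The median log2 ratio was 1.53 beside 0.01 over all compared genes. The 18 include Cfd and C5ar1 on the few cells described above, and C1qa, C1qb, C1qc, Itgam and Itgb2 at low levels. The list was chosen with earlier results of these data known, so its counts are a description. Among the initiating genes, the C1 protease genes C1ra and C1s1 went from 133 to 402 CPM (ratio 3.02, 2.78 to 3.29) and from 203 to 464 CPM (2.28, 2.13 to 2.45). The collectin genes did not pass 2-fold, with 237 and 299 CPM of Colec12 (1.26), and the lectin protease gene Masp1 was 33.3 and 41.1 CPM (1.23). C1qa, C1qb and C1qc were 14.3, 12.9 and 8.51 CPM in CFA fibroblast-like cells from 3 PBS UMIs each, while C1qb and C1qc were 15.1 and 11.3 CPM in CFA B cell-like cells and C1qa was 2005 CPM in CFA macrophage-like cells. Among the regulators, Cd55, encoding decay-accelerating factor, was 169 and 248 CPM (1.47, 1.35 to 1.59). Clu (clusterin) was lower, from 181 to 61.9 CPM (0.343, 0.302 to 0.388), and so was Vtn (vitronectin), from 36.2 to 16.1 CPM (0.445, 0.343 to 0.574). Over all kept cells Clu went from 92.0 to 31.6 CPM and Vtn from 34.7 to 11.2 CPM. In fibroblast-like cells the 7 endothelial markers summed to 180 CPM under PBS and 28.6 CPM under CFA, and the 6 erythroid markers to 596 and 213 CPM. The macrophage and adipocyte markers went the other way. The part of RNA from other cells in the Clu and Vtn ratios was not tested.

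In the terminal pathway 1 of 7 genes was compared, C7, with 17 and 74 UMIs (ratio 4.38, 2.56 to 7.91). The other genes past 2-fold in fibroblast-like cells were low, at 2.90 to 5.43 CPM in the CFA library, namely Cfp (2.74), Cd55b (2.30), Susd4 (3.73), Itgam (4.02) and Itgb2 (9.05). In the other stromal classes C1ra was higher in mural-like cells (31.4 and 63.0 CPM) and endothelial-like cells (3.06 and 6.87 CPM), and Masp1 in tenocyte-like cells (16.7 and 71.1 CPM) and endothelial-like cells (0.851 and 3.51 CPM). C1s1, Masp1 and Cd55 were lower in chondrocyte-like cells, at 17.3 and 3.64, 11.95 and 4.68, and 9.30 and 3.12 CPM. Clu and Colec12 were lower in Schwann-like cells, at 36.4 and 5.93 and at 16.2 and 5.93 CPM, and Vtn in endothelial-like cells, at 34.2 and 1.46 CPM. C1q and Itgam counts past 2-fold in chondrocyte-like, mural-like, endothelial-like or Schwann-like cells reached at most 17.8 CPM, beside 15.1 CPM of C1qb and 33.9 CPM of Itgam in CFA B cell-like cells. Other genes over 100 CPM in a stromal class were within 2-fold or not compared there, such as Cd59a in Schwann-like cells (257 and 236 CPM), Cr1l in endothelial-like cells (161 and 156 CPM), Vtn in mural-like cells (227 and 153 CPM) and Cd55 in PBS lining cells (1111 CPM).

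**Figure D5:**
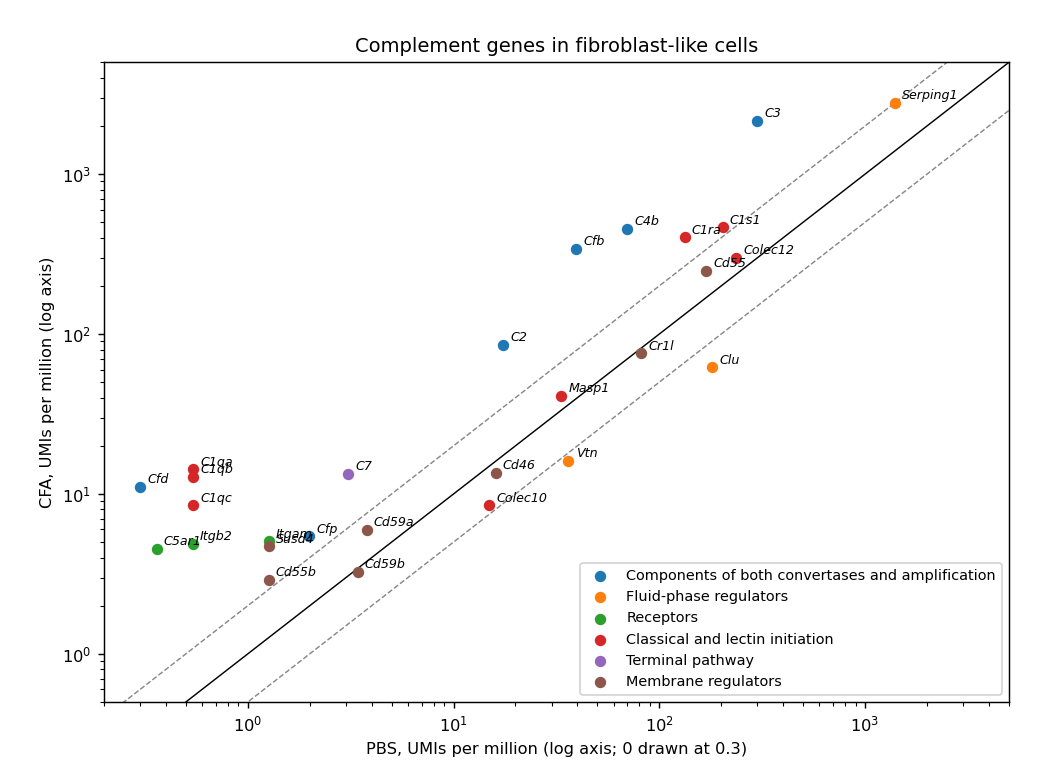
Level of the 28 compared complement genes in fibroblast-like cells, PBS on the x axis and CFA on the y axis, both as CPM on log axes, colored by role; the solid line marks equal levels, the dashed lines 2-fold, and Cfd, at 0 in PBS, is drawn at 0.3. C3, C4b, C2 and Cfb lie well above the upper dashed line, Serping1 on it, and Clu and Vtn below the lower one.

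The genes most alike each member in pattern were found over 24 points, each a named class in 1 library with at least 20 cells, by Pearson's r of log2(CPM + 10) among 5698 genes. These points share libraries and differ in depth, so r is a description. C3 was most like Dram1 (r = 0.905), Ifi207 (0.835) and Ifi204 (0.833), and Cfb most like Saa3 (0.914), Mmp19 (0.911) and Cxcl16 (0.896). C4b was most like Asic2 (0.794), Efemp1 (0.773) and Cxcl5 (0.763), and C2 most like Nox4 (0.866), Cxcl5 (0.855) and Il33 (0.8296). Serping1 followed the matrix genes Fbn1 (0.934) and Fstl1 (0.926) and the channel gene Kcnt2 (0.921). C3ar1 was most like Lyz1 (0.975), Apoc2 (0.966) and Csf1r (0.963), and C5ar1 most like Cd300lf (0.988), Igsf6 (0.986) and Lst1 (0.982). For Cfd, whose points rest on a few cells, the values were 0.924 for Gm32647, 0.886 for Cxcl5 and 0.871 for Asic2.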

How the data were processed

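The authors sequenced 10x Genomics 3′ libraries and made UMI counts with Cell Ranger 7.0.1 on mm10 (GRCm38), deposited without normalization, and the annotation release is not given in the sources used here. The labels and the methods differ on the digestion enzymes and the kit version, and the methods state n = 3 per group, while the labels do not say how many mice entered each library. The members and gene lists were chosen with earlier results of these data known. Kept cells were normalized with SCTransform and integrated in Seurat 5.3.0 on 2975 of 3000 genes, complement genes removed, with 200 principal components and resolution 1.5. Clusters were named when at least 3 markers were in 25% of cells and 2-fold higher than elsewhere (10 CPM added), unless other markers led their top 10 genes or their median UMI count was low. Lining markers also served as a class, a choice made after seeing the clusters. Fibroblast-like and endothelial-like cells were reclustered with 30 components at resolution 0.5. No doublet caller was applied in the main analysis. The named genes were the 8 members, list genes of at least 100 CPM in a stromal class or past 2-fold, and the 3 genes most like each member. Of the list, 1 further gene is not reported here. Ratios were computed with scipy 1.17.1, tested on simulated counts, and 0 counts were set to 3. The alternatives were other cell limits, clusterings, scalings and class rules.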

Additional observations from a re-analysis of the deposited data

Results flagged for a closer look

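Of the complement list, 3 genes were past 2-fold in opposite directions in different stromal classes. Serping1 had a CFA to PBS ratio of 0.313 in chondrocyte-like cells and 3.35 in endothelial-like cells. C1s1 had ratios of 0.211 in chondrocyte-like and 2.28 in fibroblast-like cells, and Masp1 had ratios of 0.392 in chondrocyte-like and 4.25 in tenocyte-like cells. The difference between classes was not tested, since each condition had 1 library. The 3 lower ratios come from the chondrocyte-like class of 59 PBS and 88 CFA cells, with 70, 26 and 18 UMIs in the PBS library. That of Serping1 was 0.881 without the 3 highest cells of each library and 0.977 with the B cell-like level subtracted. Outside the compared stroma, Serping1 was 36.7 CPM in PBS and 5.03 CPM in CFA B cell-like cells. The PBS level in endothelial-like cells, 34.4 CPM, was no higher than that of PBS B cell-like cells.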

How the results depend on the processing

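No paired analysis was possible because each condition had 1 library, and for the same reason no library could be left out. In fibroblast-like cells C3, C4b, C2 and Cfb were past 2-fold higher under each of 14 alternatives, with ratios of 6.73 to 8.49, 4.58 to 7.62, 3.45 to 6.29 and 7.03 to 9.43. Serping1 ranged from 1.76 to 2.19 and was past 2-fold in 4. C5ar1 ranged from 2.75 to 30.3. Beside the Scrublet and added alternatives given further on, those that moved a fibroblast-like ratio outside its counting interval were log-normalized counts without integration (C3 8.49, Serping1 2.19), 50 principal components (C3 7.82, C4b 7.46, Serping1 1.95), resolution 0.8 (C4b 7.62, Serping1 1.95), a mitochondrial limit of 20% (C4b 7.35), complement genes kept in the clustering (Serping1 1.94), each cell classed on its own (Serping1 1.76, Cfd 15.4) and the mean over cells (C3 6.79, C2 3.45, Serping1 1.88). Of the 3 alternatives added after seeing the data, the equal mix of subclusters gave 6.73 for C3, 4.58 for C4b, 7.03 for Cfb and 1.78 for Serping1, subtracting the B cell-like level gave 6.29 for C2, and leaving out the 3 highest cells of each library gave 7.37 for C4b and 3.04 for C5ar1 and left no Cfd UMI in fibroblast-like cells. In chondrocyte-like cells Cfb turned to 0.263 when cells were classed singly and to 0.783 without the 3 highest cells. Serping1 in endothelial-like cells was 1.29 when cells were classed singly, C3 in tenocyte-like cells was 1.17 with complement genes kept in the clustering, and C5ar1 in neutrophil-like cells ranged from 1.28 to 3.94. The causes of these shifts were not tested. Leaving out the 135 PBS and 217 CFA cells with the highest Scrublet scores, which called 21 and 2 doublets, kept the fibroblast-like ratios of C3, C4b, C2, Cfb and Serping1 within their intervals, moved C5ar1 to 2.75 and left no Cfd ratio. At this depth 0 UMIs in fibroblast-like cells of the PBS library allow a level of up to 0.540 CPM.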
